A study of Mus musculus with 2 samples.

Results

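The members described here are 51 genes of DNA repair, chosen by name and sorted into 6 pathways by the main role of their product. There are 18 genes of homologous recombination, 10 of the Fanconi anaemia pathway, 3 of mismatch repair, 9 of nucleotide excision repair, 5 of base excision and single-strand break repair and 6 of end joining. Probes were assigned to them through the transcript accession that the array lists. No probe mapped to *Rad51c*, so 50 members were measured, among 24022 genes tested. All 50 were well above background in both channels on both arrays.

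Expression was measured in mouse embryonic stem cells (mESCs) whose *AIMP3* alleles are flanked by loxP sites and which carry cre-ERT2, a Cre recombinase that becomes active when it binds tamoxifen. The AIMP3-depleted mESCs (AIMP3f/f;cre-ERT2) received 2 µM 4-hydroxytamoxifen, named tamoxifen in the labels, for 4 days, in 2 replicates. The control mESCs had the same genotype and received ethanol for the same time, and RNA of 2 replicates was joined into 1 pool. Control cells therefore carry the unrecombined alleles and the recombinase but never met the drug, so an effect of the drug or of active Cre cannot be told apart from that of losing AIMP3. Cells were treated in medium with LIF. The labels say that cells were kept in general on a feeder layer of mouse embryonic fibroblasts, whereas the methods give medium conditioned by such fibroblasts for incubation with drugs. The age and sex of the line were not given in the sources used here.

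RNA of each AIMP3-depleted replicate carried Cy5 and competed with the Cy3-labelled control pool on 1 Agilent array. All values below are log2 ratios of AIMP3-depleted over control, so a negative value is a lower level in AIMP3-depleted mESCs. A gene is said to have risen or fallen where its Benjamini-Hochberg adjusted p, over all tested genes, was under 0.05 by limma, at any fold. *Eef1e1*, which encodes AIMP3, was at -0.90 on both arrays (SD 0.0067, adjusted p = 5.08e-05 by limma). Dyes were not swapped and the control was 1 pool on 1 slide, so p-values measure the spread between 2 arrays, leave out the spread of the control, and cannot tell depletion from a dye bias of single probes. The samples are bulk RNA, in which fewer cells of a type and less RNA per cell cannot be told apart.

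Cells mend DNA by several routes that differ in the lesion and in the cell cycle. Homologous recombination copies an intact sister chromatid to mend a double-strand break, and the Fanconi anaemia pathway works with it to free replication forks blocked by crosslinks between strands. End joining ligates broken ends directly. Nucleotide excision repair cuts out bulky lesions such as those made by ultraviolet light, base excision repair removes single damaged bases, and mismatch repair corrects errors of replication. Embryonic stem cells divide fast, spend much of their time in S phase and are known to rely strongly on homologous recombination.

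After loess, AIMP3-depleted mESCs had lower levels of 12 of the 17 homologous recombination members and 7 of the 10 Fanconi anaemia members, and higher levels of 4 of the 9 nucleotide excision repair members. Of the 50 measured members, 25 fell and 6 rose, which is 50% and 12%. Of all tested genes, 23.7% fell and 30.6% rose, 54.3% in all. The other 19 members did not pass the test. No member passed 1.5-fold with an unadjusted p under 0.05, a limit that 6.32% of all genes passed, 5.52% upward and 0.791% downward. The log2 ratios ranged from -0.51 (*Bard1*) to 0.51 (*Ercc4*), and their median was -0.14 (-0.16 for replicate 1 and -0.13 for replicate 2) against 0.02 for all genes. The SD between arrays had a median of 0.043 over the members and 0.048 over all genes. Of the members, 37 of 50 lay below the median of all genes.

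These counts depend on how the dyes are balanced. Loess, used here, removes the difference between dyes at each intensity. When each array was centred on its median instead, the median of all genes moved from 0.02 to 0.18, 54.5% of all genes rose and 8.77% fell, and 20 members rose and 9 fell. All 6 members that had risen did so again, and 9 of the 25 that had fallen fell again (*Bard1*, *Rad54b*, *Rad54l*, *Brca1*, *Fancl*, *Fancc*, *Fancd2*, *Parp1* and *Xrcc6*). Of the others, *Xpc* changed sign, though it stayed below the median of all genes, and 15 no longer passed the test. Relative to all genes these 15 lay from -0.30 (*Fanca*) to -0.21 (*Blm*) with median centring. Medians are therefore also given relative to all genes.

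**Figure D1:**
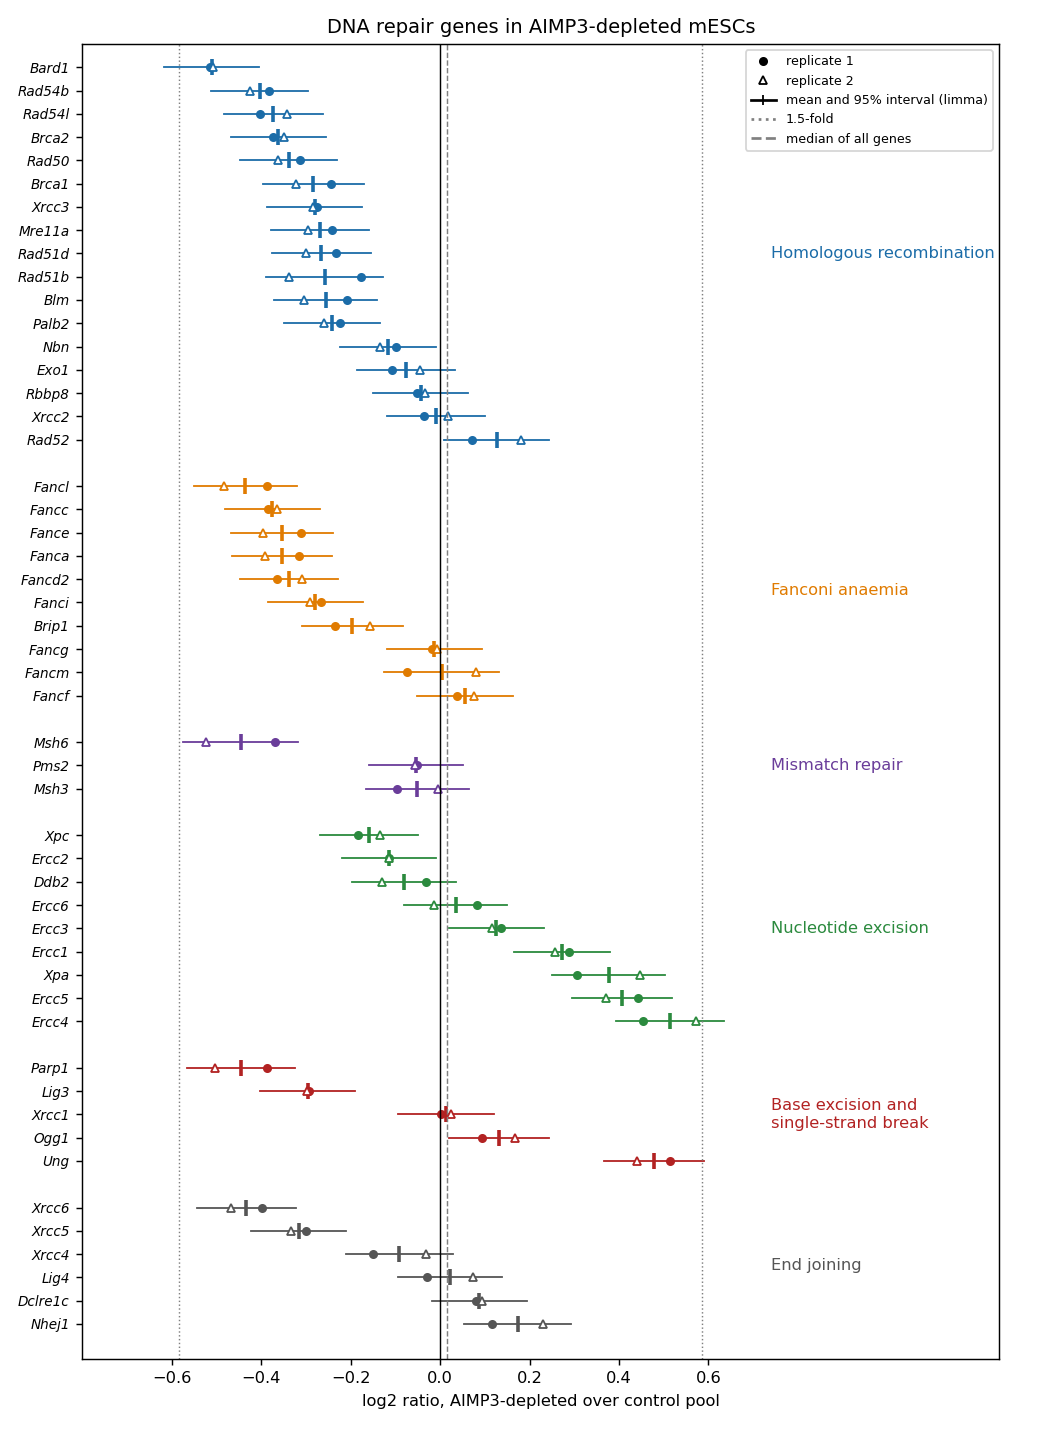
Log2 ratio of AIMP3-depleted over control for the 50 measured members, by pathway. Circles and triangles are the arrays of replicates 1 and 2, ticks the means, bars the 95% intervals of limma, dotted lines 1.5-fold and the dashed line the median of all genes. Homologous recombination and Fanconi anaemia genes lie mostly left of 0, from -0.51 to 0.13, and *Ercc4*, *Ercc5*, *Xpa*, *Ercc1* and *Ung* lie right of it at 0.27 or above. No mean passes a dotted line.

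Promoters are shown for the member with the largest change that passed the test in each pathway, so that the genes that fell (*Bard1*, *Fancl*, *Msh6*, *Xrcc6*) can be set beside those that rose (*Ercc4*, *Ung*). Sequences are from RefSeq on GRCm38.p6, whose table held 44 windows of 300 bases (250 before and 50 after the start) for 40 of the 51 members. The 250 bases before the start are given 5′ to 3′ on the strand of the gene. Capitals mark matches, on either strand, to an E2F motif (TTTCCCGC, TTTGGCGC, TTTCGCGC or TTTGCCGC), bound by the E2F factors that drive S-phase genes, or to CCAAT, the box bound by NF-Y. These motifs do not overlap one another in the windows shown, and both the motifs and the windows were chosen after the values of the members had been seen.
The window of *Bard1* lies at chr1:71102973-71103222 on the minus strand, those of *Fancl* at chr11:26386834-26387083, *Msh6* at chr17:87974800-87975049, *Ercc4* at chr16:13109486-13109735, *Ung* at chr5:114130185-114130434 and *Xrcc6* at chr15:82016119-82016368 on the plus strand.
Bard1: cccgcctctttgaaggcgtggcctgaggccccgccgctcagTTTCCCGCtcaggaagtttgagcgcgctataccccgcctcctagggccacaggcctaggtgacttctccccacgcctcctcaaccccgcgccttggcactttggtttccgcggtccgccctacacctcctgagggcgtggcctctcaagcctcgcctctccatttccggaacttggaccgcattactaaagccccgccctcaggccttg
Fancl: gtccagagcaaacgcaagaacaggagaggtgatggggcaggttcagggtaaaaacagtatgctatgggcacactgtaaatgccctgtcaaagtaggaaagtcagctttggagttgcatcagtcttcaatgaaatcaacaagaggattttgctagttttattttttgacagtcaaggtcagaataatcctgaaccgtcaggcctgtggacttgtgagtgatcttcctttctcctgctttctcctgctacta
Msh6: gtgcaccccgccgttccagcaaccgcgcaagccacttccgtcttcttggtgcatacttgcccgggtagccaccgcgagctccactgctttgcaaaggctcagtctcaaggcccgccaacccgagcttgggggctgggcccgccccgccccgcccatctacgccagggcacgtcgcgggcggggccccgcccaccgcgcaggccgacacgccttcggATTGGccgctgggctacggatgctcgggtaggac
Ercc4: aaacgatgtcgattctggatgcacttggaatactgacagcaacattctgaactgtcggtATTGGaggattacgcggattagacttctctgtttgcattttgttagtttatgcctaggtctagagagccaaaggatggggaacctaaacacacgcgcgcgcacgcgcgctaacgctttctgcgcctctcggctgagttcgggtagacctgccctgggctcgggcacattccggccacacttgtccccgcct
Ung: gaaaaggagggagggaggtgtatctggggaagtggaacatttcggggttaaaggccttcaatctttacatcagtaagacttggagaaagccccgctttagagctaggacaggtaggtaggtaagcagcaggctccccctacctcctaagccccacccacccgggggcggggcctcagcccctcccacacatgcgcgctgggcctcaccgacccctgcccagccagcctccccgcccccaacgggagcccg
Xrcc6: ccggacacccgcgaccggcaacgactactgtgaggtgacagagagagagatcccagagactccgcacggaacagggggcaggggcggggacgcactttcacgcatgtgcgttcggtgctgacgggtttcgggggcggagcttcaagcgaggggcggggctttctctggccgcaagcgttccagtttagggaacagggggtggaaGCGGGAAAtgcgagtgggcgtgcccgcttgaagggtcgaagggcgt

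*Bard1* holds an E2F match 209 bases before its start and *Xrcc6* 1 at 46 bases, on the opposite strand. *Msh6* holds 1 too, in the bases after its start, which are not printed. The windows of *Fancl*, *Ercc4* and *Ung* hold none. An E2F match was present in 8 of the 44 windows of members (18.2%) and in 2.26% of all 32851 windows. These 8 windows belong to *Bard1*, *Brca2*, *Msh6* and *Xrcc6*, which fell, to *Fancg* and *Msh3*, which did not pass the test, and to *Rad51c*, which has 2 windows and was not measured. By call, it was present in 4 of 22 windows of members that fell, 2 of 14 of members that did not pass the test and 0 of 6 of members that rose. Windows of members are also richer in CpG, with a median of 22.5 against 7 in all windows, and among windows with at least 15 CpG the share with an E2F match was 4.97%. CCAAT was present in 59.1% of the members' windows and in 37.4% of all, and the GC box GGGCGG in 70.5% and 35.7%. The cell cycle motif TTTGAA was present in 6.82% of the members' windows and in 17.9% of all. Among windows with at least 15 CpG these shares were 34.9% for CCAAT, 76.8% for the GC box and 8.16% for TTTGAA. A match describes letters only, not a bound site.

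Of the 17 homologous recombination members measured, 12 fell, 0 rose and 5 did not pass the test, and 16 lay below the median of all genes. The shares that fell and rose are 70.6% and 0%, beside 23.7% and 30.6% of all genes. The median of these members was -0.23 for replicate 1 and -0.30 for replicate 2. The genes that fell include some that act on broken ends, on the loading of the recombinase and in strand exchange.

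*Bard1*, whose product pairs with BRCA1 as a ubiquitin ligase at breaks, was at -0.51 on both arrays. Its log2 signal was 12.51 and 12.41 in the control channel and 12.00 and 11.90 in the AIMP3-depleted channel. *Bard1* thus fell by 29.8% (SE 0.044 on the log2 scale, 95% interval -0.62 to -0.41, adjusted p = 0.000257 by limma). The difference between channels was of like size on both arrays. *Brca1* itself was at -0.24 and -0.32 (adjusted p = 0.00299 by limma), and its mean was -0.50 with the processed signals and -0.46 with the authors' table. It has 1 probe, which was dim, at a log2 level of 7.54 where the median of all genes was 9.75. With the mean of its probes *Bard1* was at -0.34.

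*Rad54b*, a motor protein that moves along DNA in strand exchange, was at -0.38 and -0.43 (adjusted p = 0.000646 by limma). Its close relative *Rad54l* was at -0.40 and -0.34 (adjusted p = 0.000922 by limma). Both motors were therefore lower on both arrays, with arrays that differed by less than the fall. *Brca2*, the loader of the recombinase onto single-stranded DNA, was at -0.37 and -0.35 (adjusted p = 0.000922 by limma). *Palb2*, which ties BRCA2 to BRCA1, had a mean of -0.24 and fell as well.

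In the MRN complex, which holds and trims broken ends, *Rad50* was at -0.31 and -0.36 and *Mre11a* had a mean of -0.27, and both fell. The remaining subunit *Nbn* had a mean of -0.12 and did not pass the test, with a 95% interval from -0.22 to -0.01 that overlaps that of *Mre11a* (-0.38 to -0.16). The difference between subunits was not tested. *Rbbp8*, which encodes the resection factor CtIP, was at -0.04, and *Exo1*, a resection exonuclease, at -0.08, and neither passed the test. The helicase gene *Blm* fell, with a mean of -0.26.

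Among the paralogs that assist the recombinase, *Xrcc3* (-0.28), *Rad51d* (-0.27) and *Rad51b* (-0.26) fell. *Rad51b* did not pass the test in the authors' table (adjusted p = 0.0588 by limma). *Xrcc2* was at -0.04 on 1 array and 0.02 on the other, and its interval ran from -0.12 to 0.10. *Rad51d* rests on the choice of probe, since its dimmer probe was at 0.29 and 0.38, opposite in sign to the brighter probe that stands for the gene here. *Rad52*, an annealing factor, was the only homologous recombination member above the median of all genes, at 0.07 and 0.18, and did not pass the test (adjusted p = 0.0683 by limma). Its probe was printed 10 times on each array, with ratios from -0.03 to 0.12 on 1 array and from 0.10 to 0.31 on the other.

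With median centring 4 of the 17 fell (*Bard1*, *Rad54b*, *Rad54l* and *Brca1*) and 4 rose (*Rad52*, *Rbbp8*, *Exo1* and *Xrcc2*). Of all genes, 8.77% fell and 54.5% rose at that setting. The median of the 17 was then -0.08, or -0.26 relative to all genes. Of the 17, 15 lay below the median of all genes, which was 0.18, *Exo1* (0.17) and *Xrcc2* (0.16) among them.

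Of the 10 Fanconi anaemia members 7 fell, 0 rose and 3 did not pass the test. The shares that fell and rose are 70% and 0%, beside 23.7% and 30.6% of all genes. The median was -0.29 and -0.30 on the arrays, and 9 of 10 lay below the median of all genes. The core complex marks FANCD2 with ubiquitin. *Fancl*, its ubiquitin ligase, was at -0.39 and -0.48 (adjusted p = 0.000628 by limma). *Fancc* was at -0.39 and -0.37 (adjusted p = 0.000791 by limma). *Fance* was at -0.31 and -0.40 and *Fanca* at -0.32 and -0.39 (adjusted p = 0.00129 and 0.00123 by limma). These core subunits were below 0 on both arrays by more than the arrays differed. *Fancg* (-0.01), *Fancm* (0.00) and *Fancf* (0.06) did not pass the test, and their 95% intervals all lay within -0.13 and 0.16. The probe of *Fancg* was dim, at a log2 level of 7.67 where the median of all genes was 9.75.

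The substrate pair of that complex fell too, *Fancd2* with a mean of -0.34 and *Fanci* with -0.28. *Brip1*, a helicase that binds BRCA1, was at -0.20, and at -0.32 with the processed signals. For 2 of these genes the probes disagree. The dimmer probe of *Fancl* was at -0.09 and -0.03, and that of *Fancc* at 0.06 and -0.07. The means over both probes were -0.25 and -0.19. With median centring *Fancl*, *Fancc* and *Fancd2* fell and *Fancf* (0.27) and *Fancm* (0.20) rose, beside 8.77% and 54.5% of all genes. The median of all genes was then 0.18, and that of the pathway was -0.06, or -0.24 relative to all genes.

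*Msh6*, whose product recognizes single mismatches and small loops, was at -0.37 and -0.52. It fell by 26.6% (adjusted p = 0.000866 by limma). *Msh3*, its counterpart for larger loops, was at -0.10 and -0.01, and *Pms2*, an endonuclease subunit, at -0.05 and -0.06. Neither passed the test. Both have dimmer probes that were lower, with means of -0.23 and -0.18 for *Msh3* and -0.12 for *Pms2*, so the gap to *Msh6* rests in part on the probe chosen. With the mean of all probes the median of the 3 genes less that of all genes was -0.17 in place of -0.07. The log2 signal of *Msh6* was 15.83 and 15.78 in the control channel, at the bright end of the array. With median centring *Msh6* was at -0.04 (adjusted p = 0.665 by limma) and the median of the 3 genes changed from -0.05 to 0.16. The median of all genes was then 0.18, so relative to it *Msh6* was at -0.22 and the median of the 3 genes at -0.018.

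Of the 9 nucleotide excision repair members 4 rose, 1 fell and 4 did not pass the test. These are 44.4% and 11.1%, beside 30.6% and 23.7% of all genes. The median was 0.14 and 0.11 on the arrays. *Ercc4*, which encodes the nuclease XPF, was at 0.45 and 0.57, the highest mean among the members after loess. With the processed signals, the authors' table, median centring or replicate 1 alone, *Ung* was higher than *Ercc4*. The log2 signal of *Ercc4* was 11.53 and 11.43 in the control channel and 11.98 and 12.00 in the AIMP3-depleted channel. This is a rise of 42.7% (95% interval 0.39 to 0.63 on the log2 scale, adjusted p = 0.000407 by limma). *Ercc1*, the partner of XPF, was at 0.29 and 0.26 (adjusted p = 0.00286 by limma). Both subunits of the nuclease that cuts on the 5′ side of a lesion therefore rose.

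*Ercc5*, which encodes XPG, the nuclease on the 3′ side, was at 0.44 and 0.37 (adjusted p = 0.000703 by limma). *Xpa*, which checks the lesion and positions the nucleases, was at 0.31 and 0.45 (adjusted p = 0.00152 by limma), and its dimmer probe at 0.17 and 0.33. The genes that rose thus encode the damage verification and incision steps. The damage sensor *Xpc* was at -0.18 and -0.13 and fell (adjusted p = 0.0246 by limma). It did not pass the test in the authors' table or without a filter on dim probes, and was at 0.04 with median centring, which is -0.14 relative to all genes.

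The remaining members of the route did not pass the test. *Ddb2*, the sensor of ultraviolet damage in chromatin, was at -0.03 and -0.13. The helicases of TFIIH gave -0.11 for *Ercc2* and 0.13 for *Ercc3*, the latter near the threshold (adjusted p = 0.0502 by limma). *Ercc6*, which acts at stalled RNA polymerase, was at 0.03. With median centring 6 of the 9 rose, *Ercc3* and *Ercc6* among them, and 0 fell, beside 54.5% and 8.77% of all genes. At that setting 4 of 9, *Ercc6* (0.15) among them, lay below the median of all genes.

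Base excision and single-strand break repair held both signs. *Ung*, the glycosylase that removes uracil from DNA, was at 0.51 and 0.44 (adjusted p = 0.000403 by limma). *Parp1*, the sensor of nicks that builds poly(ADP-ribose), was at -0.39 and -0.50 (adjusted p = 0.000671 by limma). *Lig3*, the ligase that seals these nicks, was at -0.29 and -0.30 (adjusted p = 0.00198 by limma). *Ung* thus rose and the nick sensor and ligase fell, on both arrays. *Xrcc1*, the scaffold that binds LIG3, was at 0.01 with an interval from -0.09 to 0.12, and *Ogg1*, the glycosylase for oxidized guanine, at 0.13 (adjusted p = 0.0521 by limma). Neither passed the test. With median centring *Ung* (0.89), *Ogg1* and *Xrcc1* rose, *Parp1* fell and *Lig3* did not pass the test. At that setting 54.5% of all genes rose and 8.77% fell.

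Of the 6 end joining members 2 fell, 1 rose and 3 did not pass the test, which is 33.3% and 16.7% beside 23.7% and 30.6% of all genes. The Ku dimer, which caps broken ends first, fell in both subunits. *Xrcc6*, which encodes Ku70, was at -0.40 and -0.47 (adjusted p = 0.000555 by limma). *Xrcc5*, which encodes Ku80, was at -0.30 and -0.33 (adjusted p = 0.00158 by limma). Of the later ligation complex, *Lig4* was at 0.02 and *Xrcc4* at -0.09, neither of which passed the test, and *Nhej1*, which encodes XLF, was at 0.12 and 0.23 and rose (adjusted p = 0.0256 by limma). *Nhej1* did not pass with the processed signals (adjusted p = 0.0918 by limma), the authors' table (0.0598) or without the filter on dim probes (0.0709). *Dclre1c*, the nuclease Artemis, was at 0.09 and did not pass the test. With median centring *Xrcc6* fell, *Xrcc5* did not pass the test (adjusted p = 0.301 by limma), and *Nhej1*, *Dclre1c* and *Lig4* rose. Of all genes, 8.77% fell and 54.5% rose at that setting.

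**Figure D2:**
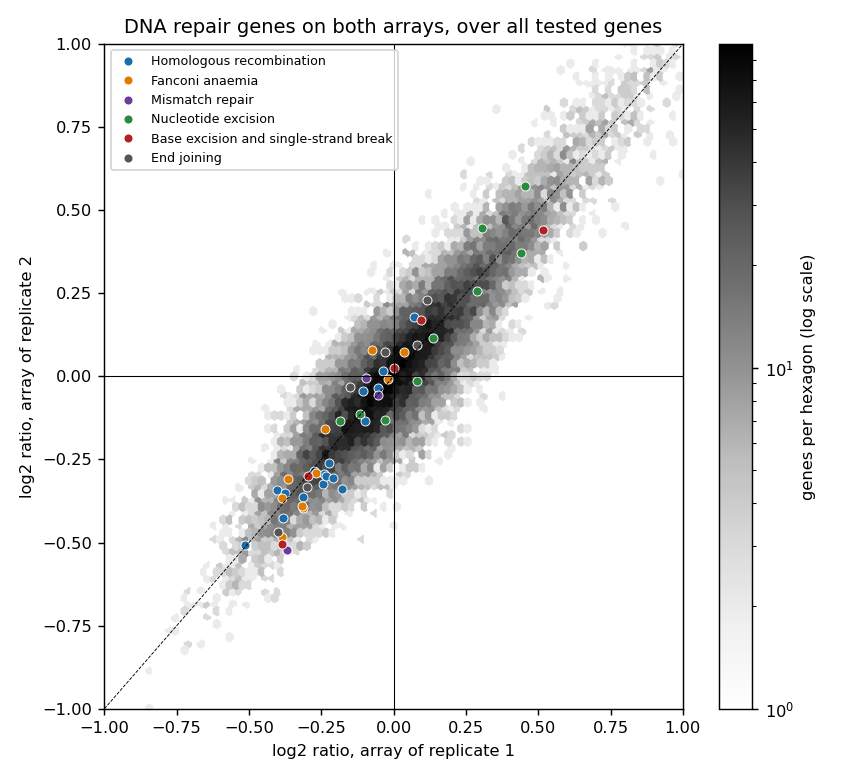
Log2 ratio of each member in replicate 1 against that in replicate 2, over the density of all 24022 tested genes in grey, which is on a log scale and cut at 1 log2 unit. Members lie along the diagonal, with *Bard1* at -0.51 on both arrays at the lower left and *Ercc4* at 0.45 and 0.57 at the upper right.

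Among the members, homologous recombination and the Fanconi anaemia pathway had the lowest medians and nucleotide excision repair the highest on both arrays. The median of nucleotide excision repair exceeded that of homologous recombination by 0.37 on 1 array and 0.41 on the other, and that of the Fanconi anaemia pathway by 0.43 and 0.42. Homologous recombination and the Fanconi anaemia pathway differed by 0.06 and 0.00, and which of them was lower turned with median centring and with the mean of all probes. The medians of mismatch repair (-0.05), base excision repair (0.01) and end joining (-0.03) lay between. With median centring the medians of mismatch repair and end joining turned to 0.16 and 0.15, where the median of all genes was 0.18. All 15 differences between pairs of pathways had the same sign on both arrays, some by less than 0.01. With 2 arrays an exact permutation test cannot go below a two-sided p of 0.5, and members are not replicates, so these differences were not tested.

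**Figure D3:**
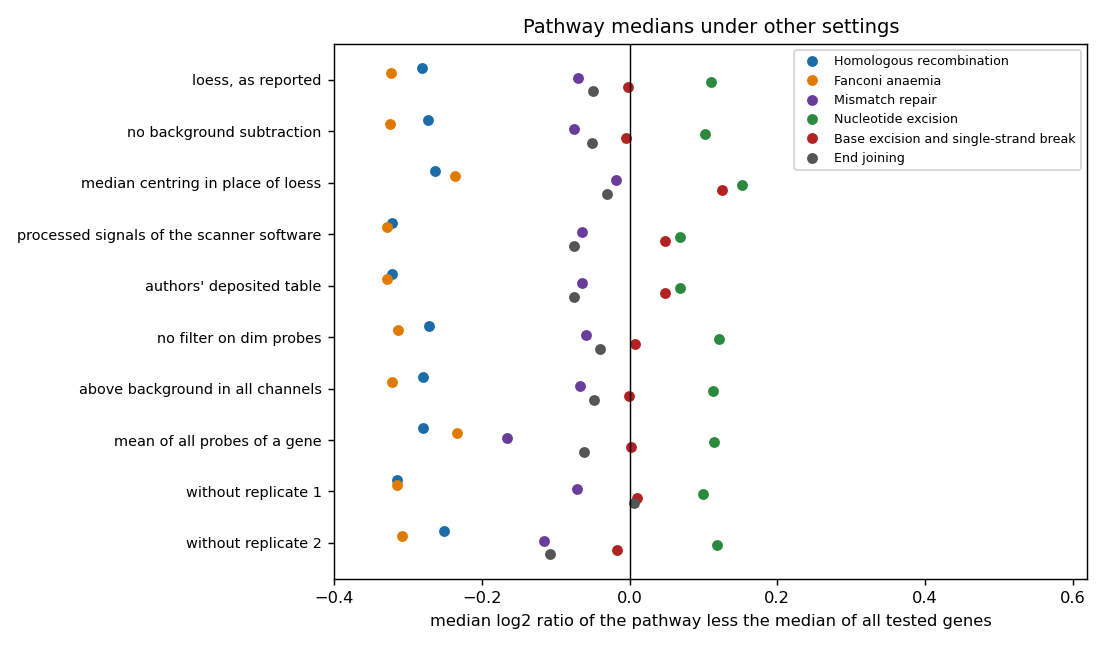
Median log2 ratio of each pathway less the median of all tested genes, under loess and the other settings. Homologous recombination and the Fanconi anaemia pathway stay between -0.33 and -0.23 and nucleotide excision repair between 0.07 and 0.15. End joining changes sign when replicate 1 is left out, and base excision repair lies at 0.12 with median centring.

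Several members have more than 1 probe, and 15 have more than 1 that passed the filter. The probes of 13 of these genes had means of 1 sign. *Rad51d* was an exception, as given above, with a mean over its probes of 0.03. *Dclre1c* was the other, with its dimmest tested probe at -0.16. *Rad54b* was lower by both probes (-0.40 and -0.43), and so were *Fance* (-0.35 and -0.37), *Rad50* (-0.34 and -0.51) and *Palb2* (-0.24 and -0.31). For *Bard1* 1 dimmer probe was at -0.43 and another at -0.08. Falls of these genes were thus seen with separate probes, but not always with each.

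**Figure D4:**
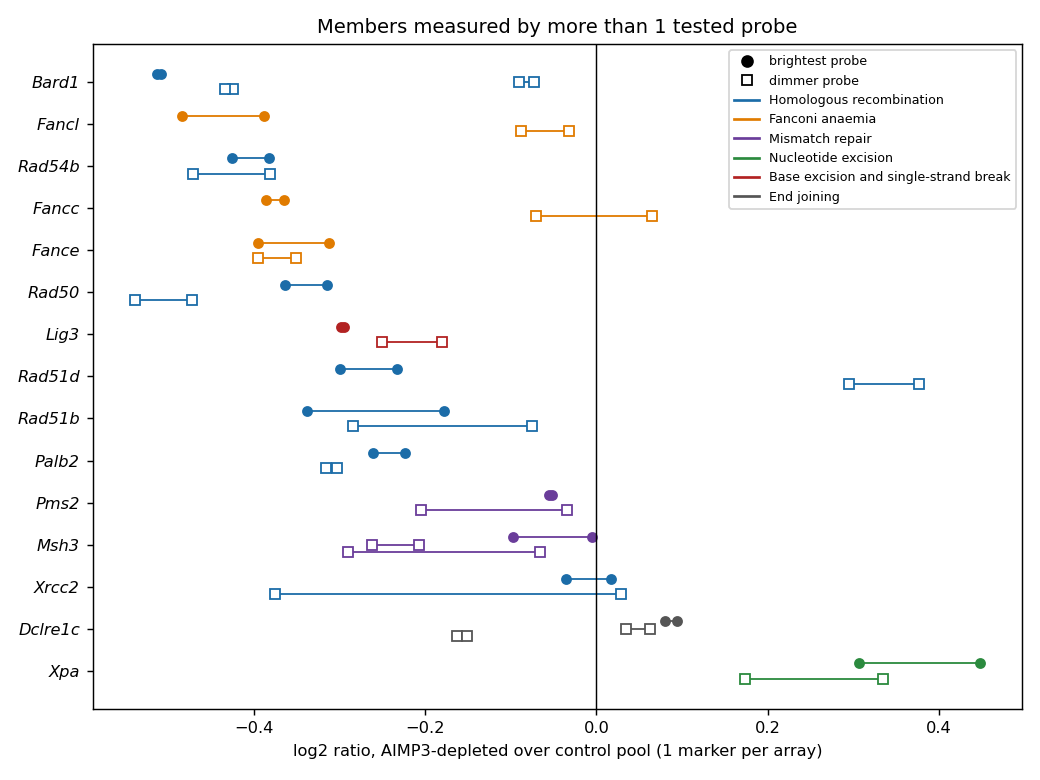
Log2 ratio of each tested probe of the 15 members with more than 1, with 1 marker per array joined by a line. Filled circles are the brightest probe, which stands for the gene, and open squares the dimmer ones. The open squares of *Rad51d* lie at 0.29 and 0.38, right of 0, while its filled circles lie left of it. Those of *Fancl* and *Fancc* lie near 0.

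A further 70 genes of the same 6 pathways were examined, of which 69 were measured. Of these 29 fell, 11 rose and 29 did not pass the test, none passed 1.5-fold, and the median was -0.10. In homologous recombination 5 of 18 fell and 4 rose (27.8% and 22.2%, near the 23.7% and 30.6% of all genes), with a median of -0.05 against -0.27 for the members. Members and other genes together, 17 of 35 fell and 4 rose in homologous recombination and 11 of 17 and 0 in the Fanconi anaemia pathway. The same counts were 12 of 23 and 1 in base excision repair, 7 of 14 and 3 in end joining, 5 of 25 and 9 in nucleotide excision repair and 2 of 5 and 0 in mismatch repair. Over these wider lists homologous recombination therefore had a share of lower genes like that of base excision repair and end joining. Those that fell include *Dna2*, a resection nuclease, at -0.46 and -0.56, and *Rpa1*, which coats single-stranded DNA, at -0.30 and -0.27. *Gen1*, a nuclease that resolves joint molecules, was at 0.28 and 0.32 and rose.

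In the Fanconi anaemia pathway 4 of 7 fell and 0 rose (57.1% and 0%, beside 23.7% and 30.6% of all genes). *Ube2t*, the ubiquitin-conjugating partner of FANCL, was at -0.50 and -0.41. Of the pair of further mismatch repair genes *Pms1* fell, at -0.51 and -0.42, and *Mlh3* was at 0.04. In nucleotide excision repair 5 of 16 rose (31.2%, near the share of all genes) and 4 fell, with a median of -0.04. *Ddb1*, the partner of DDB2, was at 0.32 and 0.23, and *Cul4a*, the cullin of their ligase, at 0.21 and 0.24.

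In base excision repair 10 of 18 fell and 0 rose (55.6% and 0%, beside 23.7% and 30.6% of all genes). The median was -0.18 against 0.01 for the members. *Lig1*, which joins fragments in replication, was at -0.41 and -0.53, and the glycosylases *Nthl1* and *Mbd4* had means of -0.32 and -0.31. In end joining 5 of 8 fell and 2 rose (62.5% and 25%). *Prkdc*, the kinase that Ku recruits, was at -0.33 and -0.44, and *Trp53bp1*, which shields ends from resection, at -0.33 and -0.27. *Aplf*, a scaffold that binds Ku, was at 0.32 and 0.43.

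**Figure D5:**
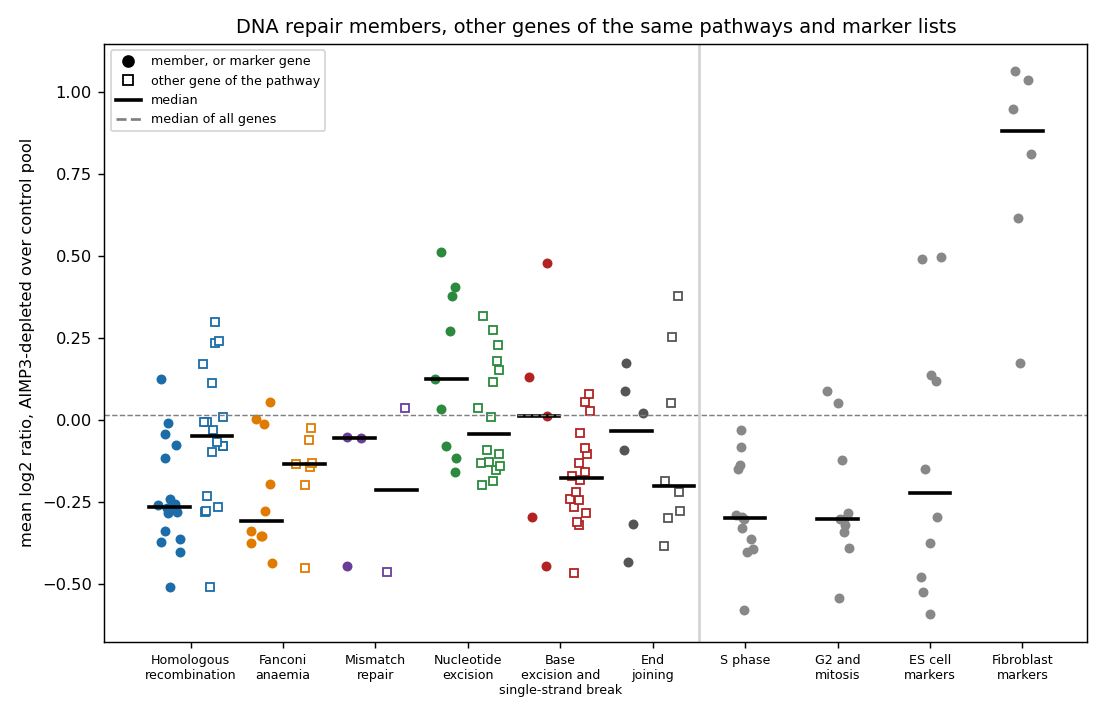
Mean log2 ratio of each measured member (filled), of the other genes of the same pathways (open squares) and of 4 lists of marker genes (grey). Black bars are medians and the dashed line is the median of all tested genes. The homologous recombination members have a median of -0.27 and the other genes of that pathway -0.05. S phase and G2 and mitosis genes have medians of -0.30, and fibroblast genes 0.88.

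Markers of the cell cycle and of cell types were set beside the members. Of 12 S phase genes 10 fell and 0 rose (83.3% and 0%, beside 23.7% and 30.6% of all genes), with a median of -0.30. *Mcm6*, a subunit of the replicative helicase, was at -0.57 and -0.59. Of 10 genes of G2 and mitosis 7 fell and 0 rose (70% and 0%), also with a median of -0.30. After loess these shifts have the size of those of homologous recombination and the Fanconi anaemia pathway. The S phase genes were brighter, with a median log2 level of 14.9 against 11.3 for the homologous recombination members. Values of these markers with median centring are not given here, so the like size is shown for loess only. The part of these cell cycle shifts in the fall of the members was not tested.

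The 10 embryonic stem cell markers were well above background in both channels on both arrays. Of these 6 fell and 3 rose (60% and 30%, beside 23.7% and 30.6% of all genes), with a median of -0.22. Of 6 fibroblast genes all rose, 5 of them past 1.5-fold, with a median of 0.88. The log2 of their summed signal was 14.27 and 14.24 in the control channel and 15.14 and 15.09 in the AIMP3-depleted channel, and all 6 were well above background in both. For embryonic stem cell genes the same sums were 18.01 and 18.06 against 18.18 and 18.21. Without *Dppa5a*, the brightest of these genes, which rose, they were 17.02 and 17.01 against 16.76 and 16.69, so the sign of the change in the sum rests on that gene. The labels give a fibroblast layer for general culture and the methods conditioned medium for drug treatment. The part of the cells that these genes mark in the members' values was not tested.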

How the data were processed

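The members and all lists were chosen with earlier results of these data known. RNA of 2 AIMP3-depleted replicates (Cy5) and of 1 control pool (Cy3) was hybridized to Agilent mouse 8 × 60K arrays. The authors deposited each array's scanner file. It holds unnormalized median intensities of spots and of the background around them, and intensities processed by Feature Extraction (version 11.5.1.1 per the file headers, another version than the methods name). The deposited log10 ratio of Cy5 over Cy3 was not used. The authors also deposited a table of log2 ratios after GeneSpring, which equalled the log2 ratio of the processed signals plus 0.04 on each array (100% of 55249 single-spot probes within 0.01), so its scale and direction are settled and its centring is not zero (medians 0.09 and 0.11). No per-sample column of that table of log2 ratios was left out.

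Spots were corrected with normexp (offset 50) on the median signals and normalized by loess within arrays, with control spots at weight 0, in limma 3.58.1 (R 4.3.3). Outlier spots (215 and 227) were dropped and spots of a probe averaged. On both arrays a probe had to be well above background in Cy3, Cy5 or both, which kept 33014 of 55681, and the brightest stood for its gene. Of 24022 genes, 14975 were named by RefSeq accession, and the others keep the array's identifier. Log2 ratios were tested against 0 with lmFit and eBayes (1 residual and 5.25 prior degrees of freedom). The script was tested on simulated data. The median signal over background was 2.68 to 3.31, 59.3% to 60.6% of spots were well above background, and 0 were saturated. The number of arrays limits the precision.

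Named with values on each array are up to 4 members per pathway with the largest change that passed the test with the same sign on both arrays, members whose probes differ in sign with 1 past 1.2-fold, and at most 3 other genes per pathway. An item that this rule would name is not reported here. All other members are given by their mean or by both arrays. Motifs were searched in RefSeq promoters (GRCm38.p6). The array design is annotated on another build, so gene coordinates are not given.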

Additional observations from a re-analysis of the deposited data

How the results depend on the processing

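Relative to all genes, the medians of homologous recombination and the Fanconi anaemia pathway were negative and that of nucleotide excision repair positive under every setting computed. Counts of members that rose and fell at any fold (6 and 25) were 20 and 9 with median centring, which also gave 4 members over 1.5-fold upward, and 0 and 0 with the methods' t-test after adjustment, at which 0 of all genes passed (15 members and 5880 genes had an unadjusted p under 0.05). At 1.2-fold in place of 1.5-fold, 5 members were higher and 20 lower. Without replicate 1 or 2 the count over 1.5-fold was 0 in each direction.

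With median centring the relative medians were -0.24 for the Fanconi anaemia pathway (-0.32 after loess), -0.018 for mismatch repair (-0.07), 0.15 for nucleotide excision repair (0.11) and 0.12 for base excision repair (-0.0021). With the processed signals they were 0.0683 for nucleotide excision repair and 0.0478 for base excision repair, and 0.0684 and 0.0478 with the authors' table. With the mean of all probes they were -0.23 for the Fanconi anaemia pathway and -0.17 for mismatch repair, and without a filter -0.31 for the former. With genes of 2 roles counted in both pathways they were -0.29 for the Fanconi anaemia pathway and -0.13 for end joining (-0.05). Without 1 replicate they ran from -0.31 to -0.25 for homologous recombination, -0.32 to -0.31 for the Fanconi anaemia pathway, -0.12 to -0.071 for mismatch repair and -0.11 to 0.0053 for end joining. Of single members, *Xpc* turned to 0.042 with median centring (-0.14 relative to all genes) and *Rad51d* to 0.035 with the mean of its probes. The cause was not tested. No paired analysis was possible because the labels give 1 group and the control is 1 pool.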
